A study of Mus musculus with 5 samples.

Results

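The 6 loci described here are those of the AP-1 genes Fos, Fosb, Jun, Junb and Jund and of Atf3. They were chosen by their place in these same peak lists: each locus is a window of 10 to 30 kb placed on a long peak of RNA polymerase II (RNAPII), and every peak that overlaps the window by 1 bp or more is a member. The windows held 48 of the 32456 peaks in all 4 lists: 7 of 7718 for RNAPII, 13 of 10782 for NELF-A, 8 of 3925 for NELF-B and 20 of 10031 for DRIP. Since the lists that chose the loci also give their ranks and overlaps, those are descriptions and were not tested. The lists name no genes, so the gene names are those given with the windows.

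The peaks come from primary mammary epithelial cells of virgin mice of mixed strain, 6 to 8 weeks old, in a study of where RNAPII, NELF and R-loops lie in the genome of these cells. Thoracic and inguinal glands, the latter freed of lymph nodes, were broken down enzymatically, first into organoids and next into separate cells. The 4 lists share this source, and the labels give no genotype or treatment for them. RNAPII, NELF-A and NELF-B were mapped by ChIP-seq, and R-loops by DRIP-seq, the recovery of hybrid-bearing fragments of digested genomic DNA with an R-loop antibody. Per the labels, the RNAPII and DRIP lists each stand for 2 libraries, and a further sample, DRIP-seq after RNase H treatment, was not analysed here. The library amplification ran for 15 PCR cycles for RNAPII and DRIP and for 18 cycles for both NELF subunits. The ChIP DNA was 1 ng for RNAPII and 0.2 ng for each NELF subunit. Each target has 1 list and no replicate list, the sequencing depth is unknown, and markers of cell types could not be placed without gene positions in mm9, the build of the peaks. The authors' score, 1 whole number per peak with no stated unit, is used only to rank peaks within a list, where rank 1 is the highest and tied peaks share a rank.

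AP-1 is a family of transcription factors that bind DNA as pairs held together by leucine zippers. Jun proteins (Jun, Junb, Jund) pair with each other or with Fos proteins (Fos, Fosb), while Fos proteins need a Jun partner. Atf3 is a stress-induced member of the related ATF/CREB family that can pair with Jun proteins. Fos, Fosb, Jun, Junb and Atf3 are immediate early genes, switched on within minutes by growth factors or stress without new protein synthesis, and Jund is known as the more evenly expressed member. NELF, the negative elongation factor, holds RNAPII in a paused state shortly after the start of transcription. An R-loop is a hybrid of new RNA with its DNA template, with the other DNA strand left single.

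The 250 bases before the annotated start of each gene are shown because they are the sequence next to which paused RNAPII and NELF are known to sit. They are RefSeq sequences of build GRCm38.p6, written 5′ to 3′ on the gene's own strand, and their positions cannot be set against the mm9 positions of the peaks. Capitals mark matches on either strand to the motifs listed after them.
Fos, chr12:85473640-85473889, + strand: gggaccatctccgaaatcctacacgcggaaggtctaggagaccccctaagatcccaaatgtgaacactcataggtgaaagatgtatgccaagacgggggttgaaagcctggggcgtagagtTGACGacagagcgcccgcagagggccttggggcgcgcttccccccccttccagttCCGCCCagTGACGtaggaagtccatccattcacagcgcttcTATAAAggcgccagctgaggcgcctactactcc
Fosb, chr7:19310046-19310295, - strand: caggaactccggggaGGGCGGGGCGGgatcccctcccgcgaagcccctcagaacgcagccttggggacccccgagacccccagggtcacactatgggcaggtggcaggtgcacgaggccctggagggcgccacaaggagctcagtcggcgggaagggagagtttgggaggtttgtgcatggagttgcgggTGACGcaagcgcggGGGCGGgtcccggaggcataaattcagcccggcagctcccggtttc
Jun, chr4:95052223-95052472, - strand: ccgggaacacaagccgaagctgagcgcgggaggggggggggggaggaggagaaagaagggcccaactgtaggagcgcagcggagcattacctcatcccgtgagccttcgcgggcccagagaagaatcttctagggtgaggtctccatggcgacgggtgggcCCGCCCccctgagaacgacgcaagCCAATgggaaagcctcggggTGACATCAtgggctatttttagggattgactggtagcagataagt
Junb, chr8:84978749-84978998, - strand: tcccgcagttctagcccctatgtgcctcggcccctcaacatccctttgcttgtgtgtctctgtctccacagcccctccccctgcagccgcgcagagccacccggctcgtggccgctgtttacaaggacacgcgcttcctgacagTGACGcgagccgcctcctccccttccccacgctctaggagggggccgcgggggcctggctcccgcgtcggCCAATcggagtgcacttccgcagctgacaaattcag
Jund, chr8:70697489-70697738, + strand: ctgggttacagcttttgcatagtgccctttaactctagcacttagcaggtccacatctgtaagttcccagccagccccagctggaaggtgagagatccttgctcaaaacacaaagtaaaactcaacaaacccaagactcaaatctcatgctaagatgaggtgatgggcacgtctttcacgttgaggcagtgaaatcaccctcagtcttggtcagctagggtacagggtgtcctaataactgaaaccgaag
Atf3, chr1:191183334-191183583, - strand: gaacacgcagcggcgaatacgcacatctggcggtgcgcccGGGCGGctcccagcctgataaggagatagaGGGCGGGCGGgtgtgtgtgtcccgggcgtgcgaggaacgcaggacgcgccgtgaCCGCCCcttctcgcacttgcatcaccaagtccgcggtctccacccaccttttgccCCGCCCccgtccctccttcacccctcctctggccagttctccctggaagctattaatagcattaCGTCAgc

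All 6 genes were matched in a table of 32851 promoters of 27025 genes. The cAMP response element core (TGACG), part of the sites bound by CREB and ATF factors, was present before 4 of the 6 genes (Fos, Fosb, Junb and Atf3) and in 17.8% of all promoters. Fos carried it at 129 and at 66 bases before the start, and Atf3 on the reverse strand with its last base 3 bases before the start. The GC box (GGGCGG), a binding site of Sp1, was present before Fos, Fosb, Jun and Atf3, and in 32.7% of all promoters. In Fosb and Atf3 a pair of GC boxes overlapped. The CCAAT box (CCAAT) was found before Jun and Junb and in 33.9% of promoters, and the TATA box (TATAAA) before Fos alone, 33 bases from the start, and in 12.4% of promoters. The AP-1 site (TGANTCA) was found before 0 of the 6 and in 6.75% of promoters, and the CArG box, the core of the serum response element, before 0 of the 6 and in 1.47%. The CRE-like site TGACNTCA, which contains the core TGACG where N is G and was added to the search after the sequences were seen, was found before Jun and in 7.49% of promoters. Jund stood apart from the others in composition, with 47.6% G+C and 3 CpG in the 250 bases, against 58.4 to 68.8% G+C and 15 to 24 CpG in the other 5. The median promoter of the table had 52.4% G+C and 6 CpG. Whether the Jund entry is the start used in these cells is not known, so its composition and lack of motifs hold for that entry alone. Each gene had 1 entry in the table. Other starts, bases farther upstream than 250 and bases beyond the start were not searched, so a motif not found here may lie there. A match is a description of the letters alone.

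RNAPII formed 1 long peak at each locus, and by score all 6 lay in the first 0.752% of the RNAPII list. The peaks were 9000 to 28500 bp wide, with a median of 14250 bp, where the median RNAPII peak was 1000 bp wide. Atf3 had the highest score of the 6, 31277, at rank 3 of 7718, and its peak covered 25500 bp. Fosb followed at rank 5 with 27742 over 28500 bp. Fos was at rank 19 with 14644 over 12000 bp, Jund at rank 26 with 12600 over 16500 bp, Jun at rank 35 with 11485 over 9000 bp, and Junb at rank 58 with 9646 over 9000 bp. The score rises with width, so the score per 250 bp, the step on which the peaks start and end, was ranked as well. By that measure Jun was at rank 1 of the whole list with 319, Atf3 at rank 3 with 306.6, Fos at rank 4 with 305.1, Junb at rank 9 with 267.9, Fosb at rank 16 with 243.4 and Jund at rank 39 with 190.9. Atf3 was thus at rank 3 by either measure, Fosb stood higher by total score than per 250 bp, and Jun, with one of the shortest peaks, the reverse.

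NELF was listed at all 6 loci, in narrower peaks. The loci were spread over more of the NELF lists than of the RNAPII list. The windows were placed on long RNAPII peaks, so nothing is read from that difference in spread. The highest-score NELF-A peak of Junb scored 287 (rank 14 of 10782) and that of Jund 284 (rank 16). Jun had 160 (rank 65) and Fos 126 (rank 139). Atf3 had 69 (rank 802) and Fosb 45 (rank 2127). The 3 Jun genes therefore lay in the first 0.603% of the NELF-A list, and Fosb at 19.7%.

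NELF-B, the subunit also known as COBRA1, parted the loci in the same way. Jun led with a score of 54 (rank 34 of 3925), followed by Jund with 48 (rank 42) and Junb with 42 (rank 59). Fos had 20 (rank 386), Atf3 14 (rank 910) and Fosb 8 (rank 2329). The lowest score in this list is 7, shared by 1125 peaks, so the Fosb locus, at rank 5 for RNAPII, lay close to the floor of the NELF-B list. Score per 250 bp moved Fosb to 30.7% of the NELF-B list and 11.8% of the NELF-A list, and Atf3 to 18.0% and 18.6%. Under score per 250 bp these 2 loci still had the lowest NELF-A and NELF-B values of the 6, with Atf3 the lowest for NELF-A and Fosb for NELF-B. By width, Atf3 did not stand below Fos for NELF-A: the widest NELF-A peak of each was 1750 bp, at 3.18% of the list, while that of Fosb was at 13.9%. For NELF-B the widest peaks were at 7.11% for Fos, 20.2% for Atf3 and 51.5% for Fosb.

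In the DRIP list, Fosb and Atf3 led and Fos came next, as in the RNAPII list by score. Fosb had the highest DRIP score, 2335, at rank 16 of 10031, and Atf3 had 1443 at rank 43. Fos had 1207 (rank 60) and Jun 1202 (rank 61), which are nearly equal, and Junb had 1010 (rank 82). Jund was lowest with 662 at rank 182, or 1.81% of the list. Per 250 bp, Fosb remained first with 111.2, at rank 12, and the other 5 lay between 43.7 and 55.2, with Jund second and Atf3 last. The low DRIP score of Jund went with a short peak of 3000 bp, where the other loci had DRIP peaks of 5000 to 8250 bp.

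**Figure D1:**
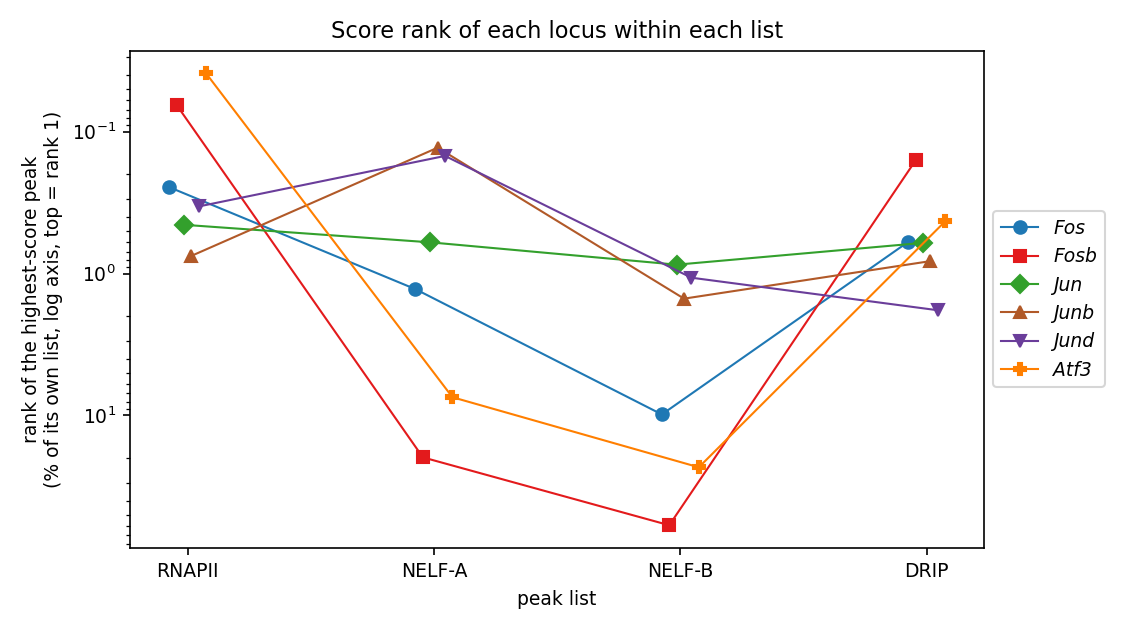
Rank of the highest-score peak of each locus as a percent of its own list (y axis, log scale, best rank at the top) in the RNAPII, NELF-A, NELF-B and DRIP lists (x axis); each symbol is 1 locus and the lines join the same locus. Fosb and Atf3 lead for RNAPII and DRIP and lie lowest for both NELF subunits, at 19.7% and 7.44% for NELF-A, while Junb and Jund lead for NELF-A.

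By score, Fosb and Atf3 had the highest RNAPII ranks and the lowest NELF ranks of the 6. By RNAPII score per 250 bp the order was Jun, Atf3, Fos, Junb, Fosb and Jund. Atf3 thus stayed high among the 6, Fosb did not, and Jund, high in NELF, was last. The loci were also set beside the 409 RNAPII peaks of 5 kb or more, a class to which all 6 belong by the way they were picked. The median highest NELF-A score within these long peaks was 56, with no NELF-A peak in 101 of them. Junb stood at rank 7 and Jund at rank 9 for NELF-A, and Jun at rank 40 and Fos at rank 76. Atf3 stood at rank 172 and Fosb at rank 232, and Fosb had a value below the class median. For NELF-B the median was 9, with no NELF-B peak in 174 of the long peaks, and Fosb, with 8, was also below it. Atf3 was above both class medians, with 69 for NELF-A and 14 for NELF-B. For DRIP all 6 were above the class median of 190, from Jund at rank 76 to Fosb at rank 9. No DRIP peak was listed in 101 of the 409 long peaks. The 6 RNAPII peaks were also wider, with a median of 14250 bp against 7750 bp for the class, and the values were not adjusted for width. DRIP peaks covered a median of 53.8% of the base pairs of the 6 RNAPII peaks, against a median of 29.2% for the class. Jund, with 25.8% covered, was the exception below that value, and Jun had the most, 66.7%.

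**Figure D2:**
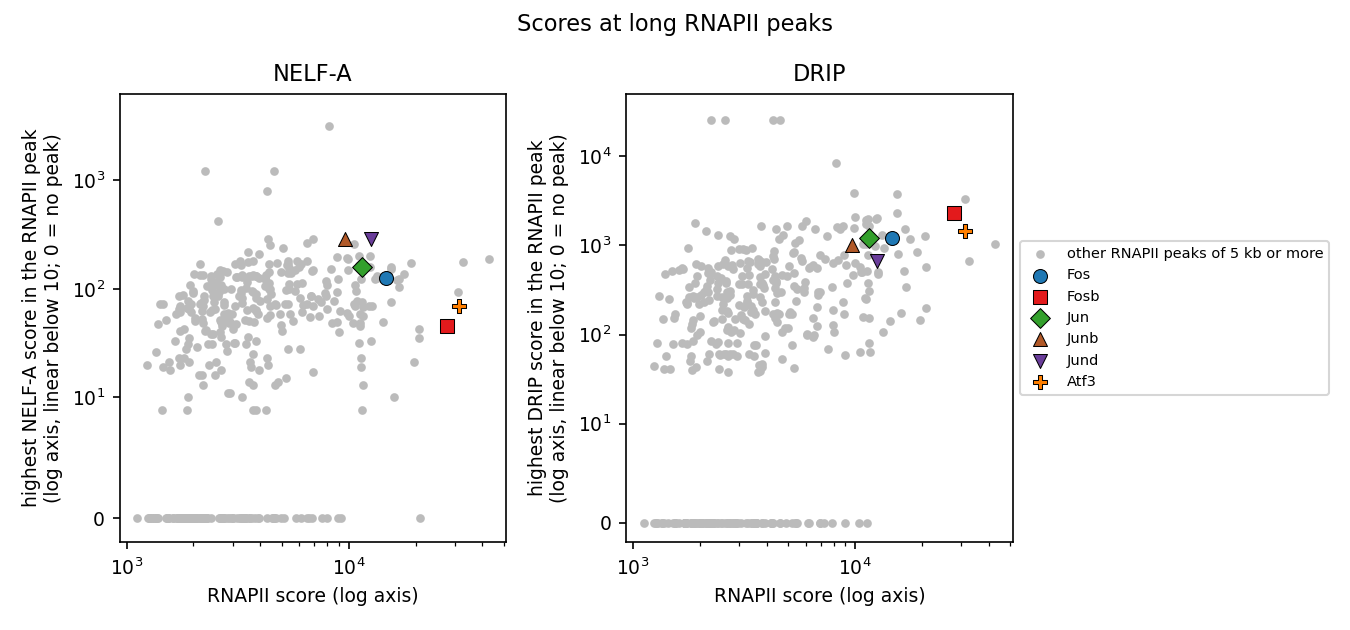
Highest NELF-A score (left) and highest DRIP score (right) within each of the 409 RNAPII peaks of 5 kb or more (y axes, log scale, linear below 10, 0 where no peak is listed) against the RNAPII score (x axes, log scale). Each point is 1 RNAPII peak, and the coloured symbols are the 6 loci. Fosb and Atf3 lie at the far right with NELF-A scores of 45 and 69, near the class median of 56, and with DRIP scores of 2335 and 1443.

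The position of the peaks was then read along the direction of transcription. The strand of each gene, taken from RefSeq, played no part in choosing the loci. Distances are from the 5′ end of the RNAPII peak, which is the end on the side where the gene begins and is not the annotated start itself.

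At Jun, whose protein can pair with itself or with Fos proteins, the RNAPII peak lay on chromosome 4 from 94711751 to 94720750, and the gene is on the minus strand. The main NELF-A peak covered 250 to 2500 bp from the 5′ end, and touching it were NELF-A peaks of low score, 14 and 15, which extended NELF-A to 4000 bp. The NELF-B peak covered 500 to 2250 bp and had the same centre as the main NELF-A peak. A single DRIP peak covered 250 to 6250 bp, so both NELF peaks of high score lay within it. The last 2750 bp of the RNAPII peak held no DRIP and the last 5000 bp no NELF-A.

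At Junb, whose protein can also restrain Jun, the RNAPII peak lay on chromosome 8 from 87496751 to 87505750, also on the minus strand. As a share of the RNAPII peak, NELF-A lay further inside than at any other of the 6 loci: the main peak covered 2500 to 6000 bp, with its centre at 47.2%. A second NELF-A peak, with a score of 56, touched it on the 5′ side. NELF-B peaks covered 2500 to 3750 bp with a score of 42 and 5000 to 5500 bp with a score of 10. The DRIP peak covered 2750 to 7750 bp, and 92.9% of the main NELF-A peak lay in it.

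At Jund, the RNAPII peak lay on chromosome 8 from 73221751 to 73238250, and the gene is on the plus strand. NELF and DRIP were compact and lay together at the 5′ end: NELF-A covered 250 to 3250 bp, NELF-B 250 to 1750 bp and the main DRIP peak 500 to 3500 bp. The centre of the DRIP peak was 250 bp beyond that of NELF-A, the smallest distance among the loci. Beyond them lay DRIP peaks of low score, 41 and 62, and the last 9000 bp of the RNAPII peak, 54.5% of its length, held no DRIP. A second RNAPII peak of 750 bp, with a score of 161, followed after a gap of 250 bp.

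At Fos, the classic immediate early gene, the RNAPII peak lay on chromosome 12 from 86812501 to 86824500, and the gene is on the plus strand. A NELF-A peak of low score, 22, covered 500 to 1500 bp, and the main one covered 1750 to 3500 bp. NELF-B covered 2000 to 3000 bp, inside the main NELF-A peak. The DRIP peak covered 1500 to 7750 bp and held the main NELF-A peak whole, and a DRIP peak at the lowest score of its list, 38, ended where the RNAPII peak began.

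At Fosb, which encodes a Fos protein known also as a short stable splice form, the RNAPII peak lay on chromosome 7 from 19867751 to 19896250, and the gene is on the minus strand. By the centre of the main peak, NELF-A lay closer to the 5′ end than at the other loci, although the main peaks of Jun and Jund also began at 250 bp. The main peak covered 250 to 1250 bp and another, with a score of 28, covered 1500 to 2750 bp. NELF-B was listed at 750 to 1250 bp with a score of 8. A second NELF-B peak, at 6500 to 7000 bp with a score of 7, had no NELF-A peak on it and lay inside the main DRIP peak. That DRIP peak covered 2250 to 7500 bp, so it began 1000 bp beyond the main NELF-A peak and overlapped only the smaller one. The 7 other DRIP peaks reached to 19500 bp, and their scores were 463 for the nearest and 38 to 111 for the rest. The RNAPII peak extended for 25750 bp, or 90.4% of its length, beyond the last NELF-A peak. In RefSeq order on GRCm38.p6, Rtn2 is the next protein-coding gene on that side. How much of this stretch lies over Fosb and how much beyond it was not tested.

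At Atf3, the RNAPII peak lay on chromosome 1 from 192985501 to 193011000, and the gene is on the minus strand. There were 3 NELF-A peaks, and the highest, with 69, was the one farthest inside, at 2750 to 4500 bp, while those of 14 and 16 lay nearer to the 5′ end. NELF-B covered 3500 to 4250 bp within the highest NELF-A peak. DRIP was spread over most of the RNAPII peak, with a peak at 2750 to 7500 bp with a score of 853 that held the main NELF-A peak, the highest at 9000 to 17250 bp with 1443, and another at 22000 to 24500 bp with 268. The last of these left 1000 bp of RNAPII without DRIP, the shortest such stretch of the 6 loci.

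**Figure D3:**
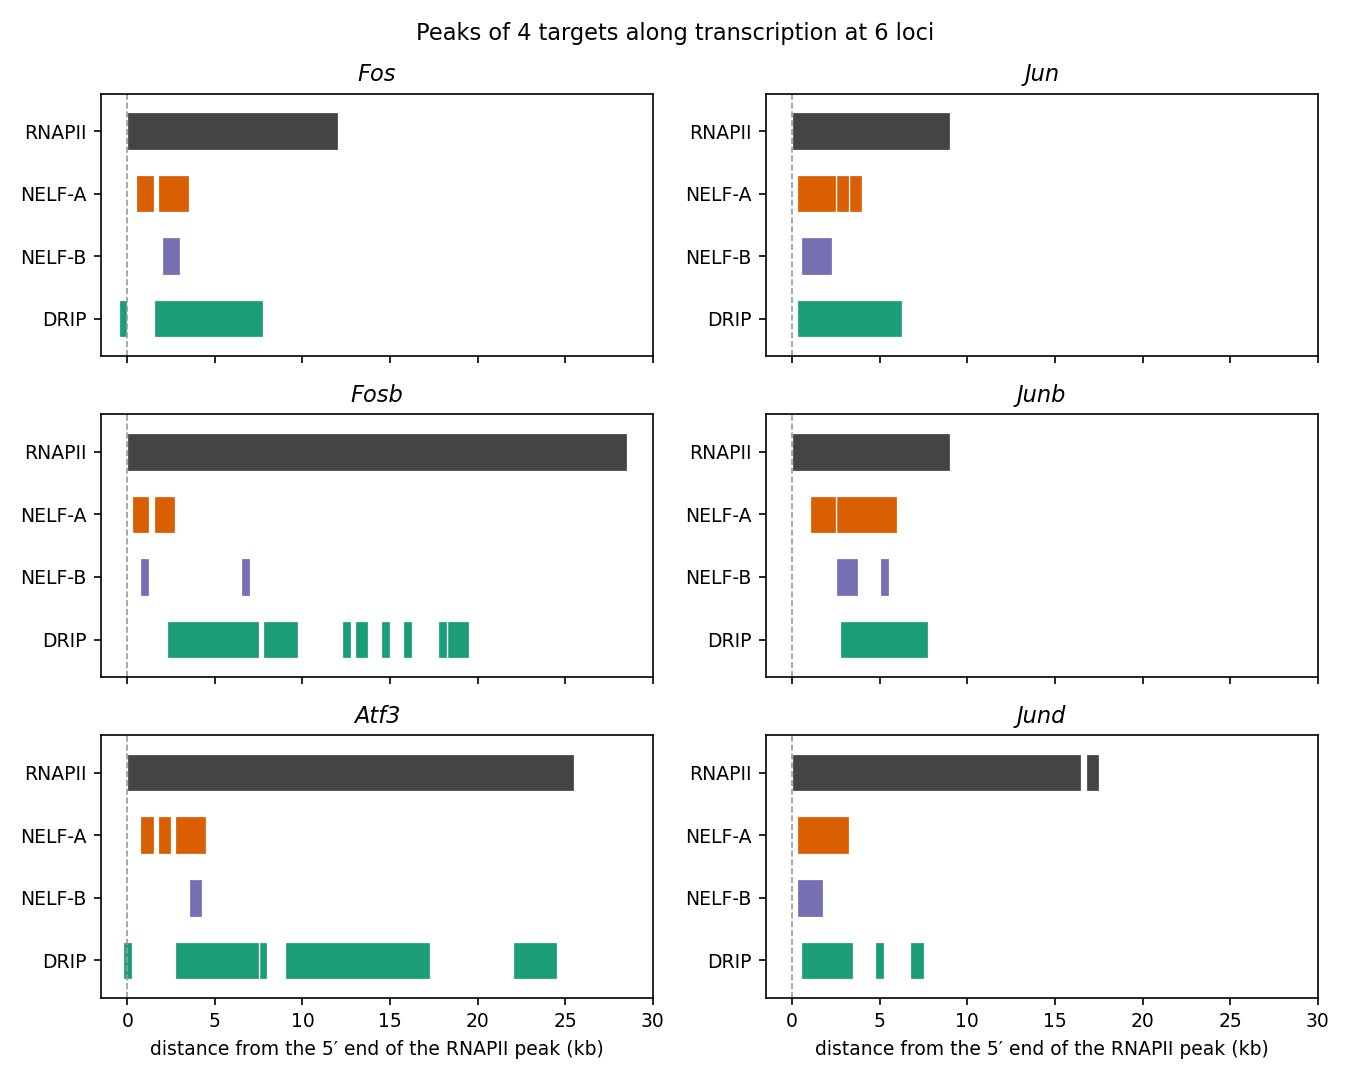
Peaks of RNAPII, NELF-A, NELF-B and DRIP (rows) at each locus, drawn to scale against the distance in kb from the 5′ end of the long RNAPII peak along transcription (x axis; dashed line at 0). Each bar is 1 listed peak. The centres of the main NELF-A and NELF-B peaks lie on the 5′ side of the midpoint of the RNAPII peak at every locus. As a share of the RNAPII peak they lie farthest inside at Junb, where the main NELF-A peak covers 2500 to 6000 of 9000 bp. In bp, the main NELF-A peak of Atf3 begins farther from the 5′ end, at 2750. DRIP extends beyond NELF-A at every locus.

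Across the loci, the centre of the highest-score NELF-A peak lay on the 5′ side of the midpoint of the RNAPII peak at 6 of 6 loci, and so did that of NELF-B. The NELF-A centres were at 2.63% (Fosb), 10.6% (Jund), 14.2% (Atf3), 15.3% (Jun), 21.9% (Fos) and 47.2% (Junb) of the length of the RNAPII peak. At Junb the NELF-A centre, at 4250 bp, was close to the midpoint at 4500 bp, and the NELF-A peak lay on both sides of it. The centre of the main DRIP peak lay 3′ of the main NELF-A centre at 6 of 6 loci, by 250 bp at Jund, 1000 bp at Junb, 1875 bp at Jun, 2000 bp at Fos, 4125 bp at Fosb and 9500 bp at Atf3. A DRIP peak that is wider than the NELF-A peak has a more 3′ centre even where both begin together, as at Jun, where both began at 250 bp. By the edge nearest the 5′ end, the first NELF-A peak began before the first DRIP peak at 3 of 6 loci, Fosb, Junb and Jund. At Jun they began at the same place, and at Fos and Atf3 a DRIP peak of low score, 38 and 40, came first. With 1 list per target these counts carry no replicate error, and loci are not replicates of a condition, so no test was made.

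DRIP covered more of the RNAPII peak before its midpoint than after it at 5 of 6 loci. The cover before and after the midpoint was 94.4% and 38.9% at Jun, 75.0% and 29.2% at Fos, 72.5% and 54.9% at Atf3, 59.6% and 19.3% at Fosb, and 51.5% and 0% at Jund. Junb was reversed, with 38.9% before and 72.2% after. No NELF-A peak was listed beyond the midpoint at 5 of 6 loci, and Junb, with 33.3% of that stretch covered, was again the other.

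**Figure D4:**
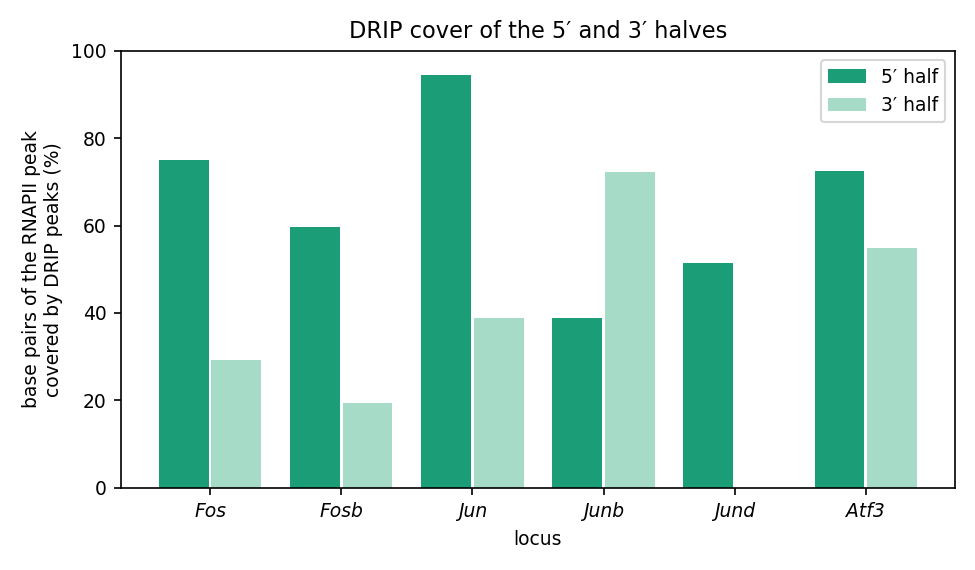
Share of base pairs of the long RNAPII peak covered by DRIP peaks (y axis, percent) before (dark) and after (light) its midpoint along transcription, for each locus (x axis). Cover is higher before the midpoint at all loci except Junb, where it is 38.9% before and 72.2% after, and Jund has none after it.

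Overlaps between targets at the loci are given beside the share over each whole list, from which nothing is read since the same lists chose the loci. Of the 7 RNAPII peaks, 6 overlapped NELF-A, NELF-B and DRIP, the exception being the small second peak of Jund, whereas 11.4% of all RNAPII peaks and 51.3% of those of 5 kb or more did. Of the 8 NELF-B peaks, 7 overlapped NELF-A (92.5% over the list), and these 7 lay wholly within a NELF-A peak (85.5% over the list). Of the 13 NELF-A peaks, 8 overlapped DRIP (13.9% over the list). Of the 20 DRIP peaks, 6 overlapped NELF-A, 1 at each locus (15.9% over the list). At Atf3 the DRIP peak on NELF-A was not the main one, whose nearest edge lay 4500 bp from the highest NELF-A peak.

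The windows have edges that decide which peaks count. At Fos, the RNAPII peak ran past the window, and the next RNAPII peak, with a score of 1622, began 1000 bp beyond the long peak and was left out. At Jund, the RNAPII peak with a score of 161 was just inside and that with 109, 2250 bp beyond the long peak, just outside. Other RNAPII peaks within 20 kb of the windows lay upstream of Fos, Fosb, Junb, Jund and Atf3 and downstream of Fosb, with scores of 108 to 1594, and at Jun there was none of any target. In RefSeq order on GRCm38.p6, Fosb lies between Rtn2 and Ercc1, Junb between Prdx2 and Hook2, Jund between Lsm4 and Iqcn, Atf3 between Fam71a and Nenf, Jun between Mysm1 and Fggy, and Fos between Tmed10 and Jdp2, itself a gene for a protein that pairs with Jun. How much of each long RNAPII peak lies over a neighbouring gene was not tested, since gene positions in mm9 were not used here.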

How the data were processed

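Peak lists of RNAPII, NELF-A, NELF-B and DRIP were used as the authors deposited them, with positions in mm9 and a score per peak of no stated unit. Reads were aligned with BWA to mm9, per the submitters' processing notes. Not given in the sources used here: the peak caller, its threshold, any input control and how libraries were combined. From these lists, peaks overlapping each window by 1 bp or more were taken, ranked within their list by score, by width and by score per 250 bp, and placed along the strand of the gene. The named genes are all 6 members. Cover is the share of base pairs of the long RNAPII peak under DRIP or NELF peaks. No RNAPII peaks touched at these loci, so the domain is the long peak. Promoters and strands are from RefSeq tables of GRCm38.p6, and coordinates were not converted. Overlap, joining, cover and rank code was checked on 20 simulated pairs of lists. Python 3.11.15, pandas 2.3.3, numpy 2.4.6, scipy 1.17.1 and matplotlib 3.10.9 were used. The members and lists were chosen with earlier results of these data known. With 1 list per target no test was possible and depth is unknown. The alternatives were joining touching peaks, ranking by score per 250 bp, by width or among peaks on RNAPII, other rules of overlap, other reference points, the upper 50% of DRIP peaks by score and wider windows.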

Additional observations from a re-analysis of the deposited data

How the results depend on the processing

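Leaving out replicates was not possible with a single list per target. A rank counted as moved when it left the 95% Wilson interval of its share of the list. That interval served only as a tolerance, since a rank is not a sampled share, and it measures no error of the rank. The median rank over the 6 loci, as a share of the list, was 0.292% in the RNAPII list, 0.946% and 5.67% in the NELF-A and NELF-B lists, and 0.603% in the DRIP list. Ranking by score per 250 bp gave 0.08422%, 1.897%, 8.369% and 1.136%, ranking by width gave 1.049%, 2.008%, 4.828% and 1.062%, and ranking among peaks on RNAPII alone gave 1.721% (NELF-A), 6.993% (NELF-B) and 2.095% (DRIP). Joining touching peaks moved the median NELF-A centre from 14.75% to 18.04% of the RNAPII peak. With all peaks set to 500 bp around their centres, 0 of the 6 loci kept an RNAPII peak with all 3 other targets, against 6 under the other rules of overlap. That setting keeps only the middle of a long RNAPII peak, where 1.85% of all RNAPII peaks still overlapped all 3. The counts of 6 loci for NELF and DRIP position and of 5 for DRIP cover were the same under each alternative run on them. Some of these could not change a count. Taking the widest single RNAPII peak gave the same peak at each locus, and joining leaves DRIP cover as it is, since cover counts each base once. Widening the windows by 10 kb, joining for the DRIP position, and weighting by score for that position were chosen after seeing the data. Widening moved 1 single-locus value, the NELF-B rank of Fosb, to 37.4% of the list, through a peak upstream. Depth is unknown, so no counting error can be given for a score.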
